A study of Homo sapiens with 26 samples.

Results

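The genes described here are 3 FOXO transcription factors, FOXO1, FOXO3 and FOXO4, and 7 genes known as FOXO targets that accompany growth arrest or quiescence: SESN1, SESN3, CITED2, TXNIP, PDK4, BTG1 and KLF2. They were chosen by symbol, and all 10 were found among the 16430 genes of the drug experiment and among the 64235 entries of the recovery experiment. Both experiments sequenced RNA of MV4-11, an established human acute myeloid leukaemia line that carries an activating FLT3 mutation. The drug experiment had 18 libraries in 6 groups of 3. DMSO (the solvent control), dexamethasone at 100 nM (a synthetic glucocorticoid), quizartinib at 10 nM (a FLT3 kinase inhibitor) and their combination were taken at 48 h, and quizartinib and the combination also at 5 days. In the 5 day combination quizartinib was present throughout and dexamethasone was added on day 3. No DMSO or dexamethasone group of 5 days was analysed here, so in the comparison of 5 day quizartinib with DMSO of 48 h the drug and the time in culture cannot be told apart. The recovery experiment had 8 libraries in 4 groups of 2: cells labelled untreated, survivors of 100 nM quizartinib given for 48 h, and such survivors after 13 or 30 days in medium without drug. All groups are 1 cell line. Whether the replicates of a group grew as separate cultures is not given, so each p-value speaks only of library-to-library spread, which may be technical.

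FOXO proteins are forkhead transcription factors that sit below growth factor receptors. When FLT3 or another receptor activates PI3K and AKT, AKT phosphorylates FOXO proteins, which are then held in the cytoplasm by proteins of the YWHA (14-3-3) family, and when the signal stops they return to the nucleus and activate genes of cell cycle arrest, stress resistance and altered fuel use. This control acts on the protein, so the mRNA level of a FOXO gene does not report its activity. Several FOXO targets, among them TXNIP, PDK4 and KLF2, are also known to respond to other inputs, such as glucose sensing, glucocorticoids or acute stress.

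The promoter letters of the members were searched because FOXO proteins are known to bind GTAAACA and close variants. RefSeq promoter windows on GRCh38.p14, each from 250 bases before to 50 bases after an annotated start, were present for all 10 members, as 18 windows. Both strands were searched, and the 4 motifs share a core, so that neighbouring matches can overlap. GTAAACA was found in windows of BTG1, FOXO4 and TXNIP, GTAAATA in a window of SESN1, ATAAACA in a window of FOXO3 and ATAAATA in none. At least 1 of the 4 motifs was in 5 of the 18 member windows, beside 13.6% of all 35116 windows, and in 5 of the 10 members, beside 16.2% of all 27305 genes. The shares of genes are not alike, as the members had more windows per gene, 18 for 10 beside 35116 for 27305. GTAAACA alone was in 3.42% of all windows. A match describes the letters only. The sequences are given 5′ to 3′ on the gene's own strand with the motif in capitals. They are the promoter of TXNIP, the 1 member called under quizartinib in both experiments, a stretch of the BTG1 promoter, which holds the same motif on the opposite strand, and the short surroundings of the matches in FOXO4, FOXO3 and SESN1. The TXNIP line also has in capitals the letters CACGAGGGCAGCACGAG, a match to CACGNG, any 5 bases and CACGNG again, the form of the carbohydrate response element for which this promoter is known.
TXNIP, minus strand, chr1:145996580-145996829: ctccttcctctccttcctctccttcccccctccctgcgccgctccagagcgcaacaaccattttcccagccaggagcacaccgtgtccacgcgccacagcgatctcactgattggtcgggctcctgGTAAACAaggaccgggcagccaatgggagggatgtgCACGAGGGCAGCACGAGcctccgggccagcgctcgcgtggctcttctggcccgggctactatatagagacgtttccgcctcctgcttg
BTG1, minus strand, chr12:92145977-92146096: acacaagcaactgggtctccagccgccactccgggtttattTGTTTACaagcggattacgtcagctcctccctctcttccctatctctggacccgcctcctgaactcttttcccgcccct
FOXO4, plus strand, chrX:71095864-71095890: ccggcgagtgGTAAACAgagacgtcag
FOXO3, plus strand, chr6:108560673-108560699: cgagcgaaacATAAACAaacgcacgca
SESN1, minus strand, chr6:109009040-109009066: tctccaatacGTAAATAacattgtcgt

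In TXNIP the FOXO-type motif began 124 bases and the carbohydrate motif 88 bases before the annotated start. In BTG1 the motif lay on the opposite strand, 209 bases before the start, so the printed strand reads TGTTTAC. In SESN1 it lay 68 bases before an annotated start, in FOXO3 234 bases before one, and in FOXO4 23 bases after the start. The carbohydrate motif was in 20 of all windows, or 0.057%, and among the members in TXNIP alone; it was searched after the TXNIP letters had been read. The palindrome AGAACA, any 3 bases and TGTTCT, the classical glucocorticoid receptor element, was in no member window and in 0.00285% of all windows. On GRCh38, GENCODE places the protein-coding genes FOXO1 at chr13:40469953-40666597, FOXO3 at chr6:108559835-108684774, FOXO4 at chrX:71096197-71103535, SESN1 at chr6:108986437-109094819 and SESN3 at chr11:95165513-95232541. It places CITED2 at chr6:139371807-139374620, TXNIP at chr1:145992435-145996600, PDK4 at chr7:95583499-95596491, BTG1 at chr12:92140278-92145897 and KLF2 at chr19:16324817-16327874.

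Total counts ran from 14795190 to 24990476 per library in the drug experiment. All 10 markers fixed for this line, among them FLT3, CD33 and SPI1, reached 1 FPKM (fragments scaled to transcript length and library size, a level per length) in at least 1 recovery library. Of markers of other cells, 6 of 7 for T and NK cells, 3 of 5 for B cells, 7 of 8 for erythroid cells and megakaryocytes and 6 of 8 for fibroblasts and epithelium stayed under 1 FPKM in all 8 recovery libraries. The exception for T and NK cells, NKG7, was not near that limit. The 7 markers of that list summed to 23.4 to 39.4 FPKM in untreated cells and 64.7 to 116 FPKM at 13 days, nearly all of it NKG7. In each of the 4 groups of 48 h the third library stood apart. Of 16 immediate early genes, which cells induce within minutes of a stimulus or of handling, 15 with DMSO, 16 with dexamethasone, 16 with quizartinib and 15 with both drugs were over 1.5 times the mean of the first pair, with median ratios of 5.35, 5.08, 7.42 and 2.78. FOS, for example, was at 49.9, 50.3 and 926 CPM (counts scaled to library size, with TMM factors) in the DMSO libraries. Calls that changed without these libraries are given with both values. In the recovery experiment the 13 day libraries differed from each other, with MKI67, a proliferation marker, at 46.7 and 0.204 FPKM.

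At 48 h, quizartinib cells held more TXNIP, PDK4, SESN3 and FOXO4 mRNA than DMSO cells and less SESN1 and FOXO1. The differences of SESN1 and FOXO1 did not pass in every fit, and FOXO1 had only 3 to 13 counts a library here. Dexamethasone raised FOXO3 with or without quizartinib. With quizartinib present, dexamethasone also raised PDK4, SESN1 and SESN3, at 48 h and again at 5 days. A call means an adjusted p under 0.05 in edgeR's quasi-likelihood test, with Benjamini-Hochberg adjustment over all 16430 genes. Dexamethasone against DMSO called 1 of the 10 members, FOXO3, as higher, where 12.1% of all genes were called, 5.5% as higher and 6.63% as lower. Quizartinib against DMSO called 6 members, 4 higher and 2 lower, where 59.4% of all genes were called, 29% higher and 30.4% lower, so that count is near the background. The combination against DMSO called 6 members, all higher, against a background of 63.1% (31.3% higher and 31.8% lower), and against dexamethasone 5, all higher, against 65.7% (33.4% higher and 32.3% lower). The combination against quizartinib called 5 members, all higher, at 48 h (FOXO1, FOXO3, SESN1, SESN3 and PDK4), where 10.3% of all genes were called, 5.62% higher and 4.63% lower. At 5 days it called 5 members, all higher (FOXO3, FOXO4, SESN1, SESN3 and PDK4), where 8.64% of all genes were called, 4.6% higher and 4.04% lower. The median log2 fold change of the 10 members was 0.59 at 48 h and 0.42 at 5 days, beside 0.01 and -0.01 over all genes. The 48 h comparisons that share DMSO or quizartinib libraries are not independent of each other. Levels come from bulk RNA of cells that survived, so fewer cells with a transcript and less of it per cell cannot be told apart.

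**Figure D1:**
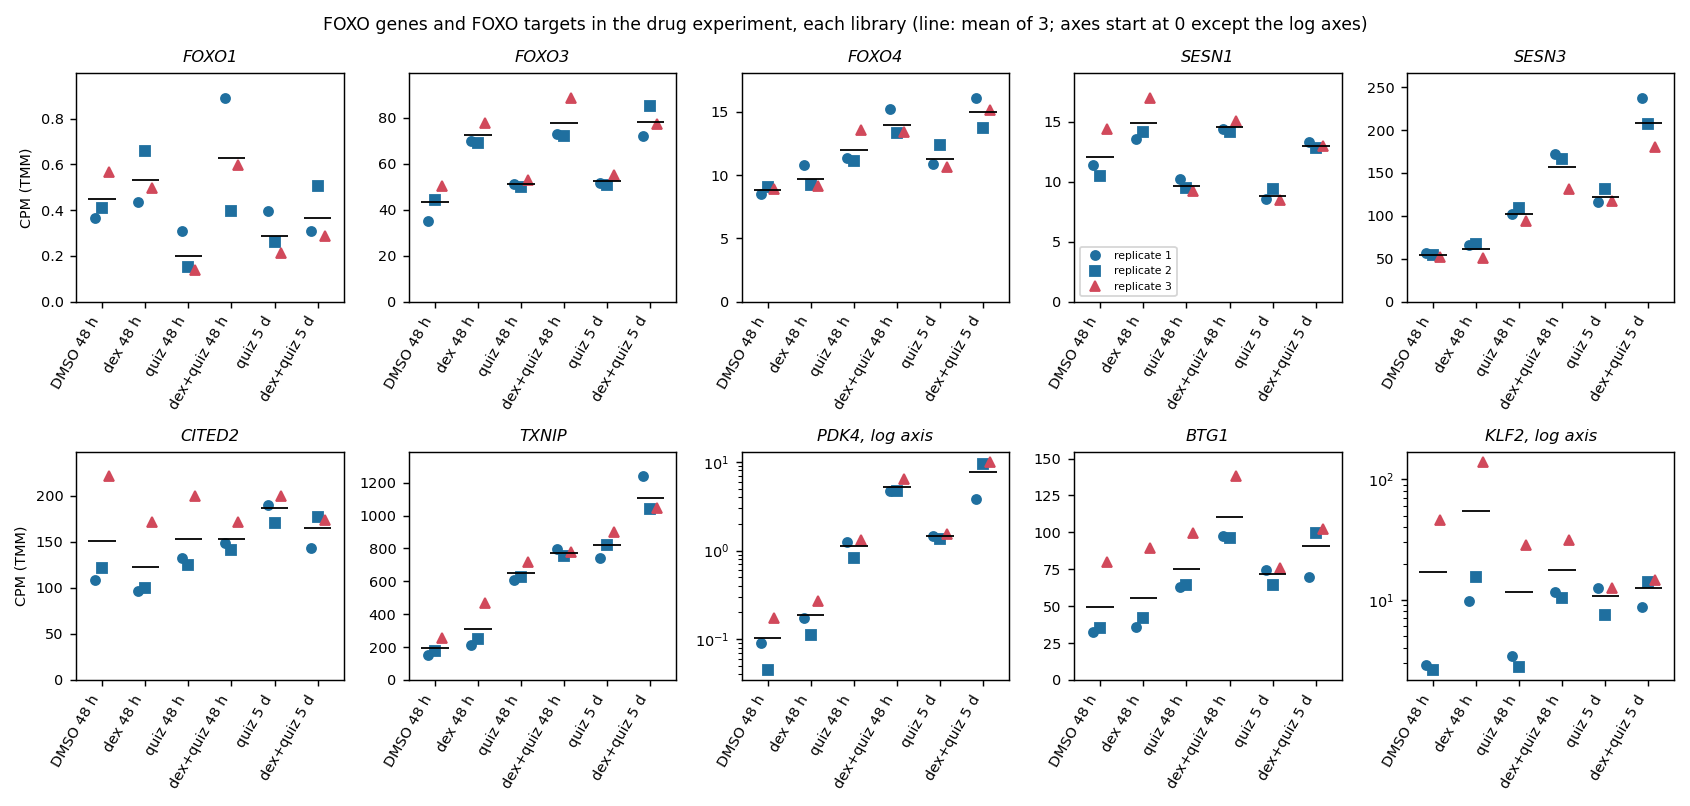
CPM of each member (vertical axis, linear from 0, logarithmic for PDK4 and KLF2) in the 18 libraries of the drug experiment, by group, with replicates 1 and 2 in blue, replicate 3 in red and a line at the mean of 3. TXNIP, PDK4 and SESN3 are lowest in DMSO and highest in the 5 day combination, and the third library of KLF2 stands above the first pair in the groups of 48 h.

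**Figure D2:**
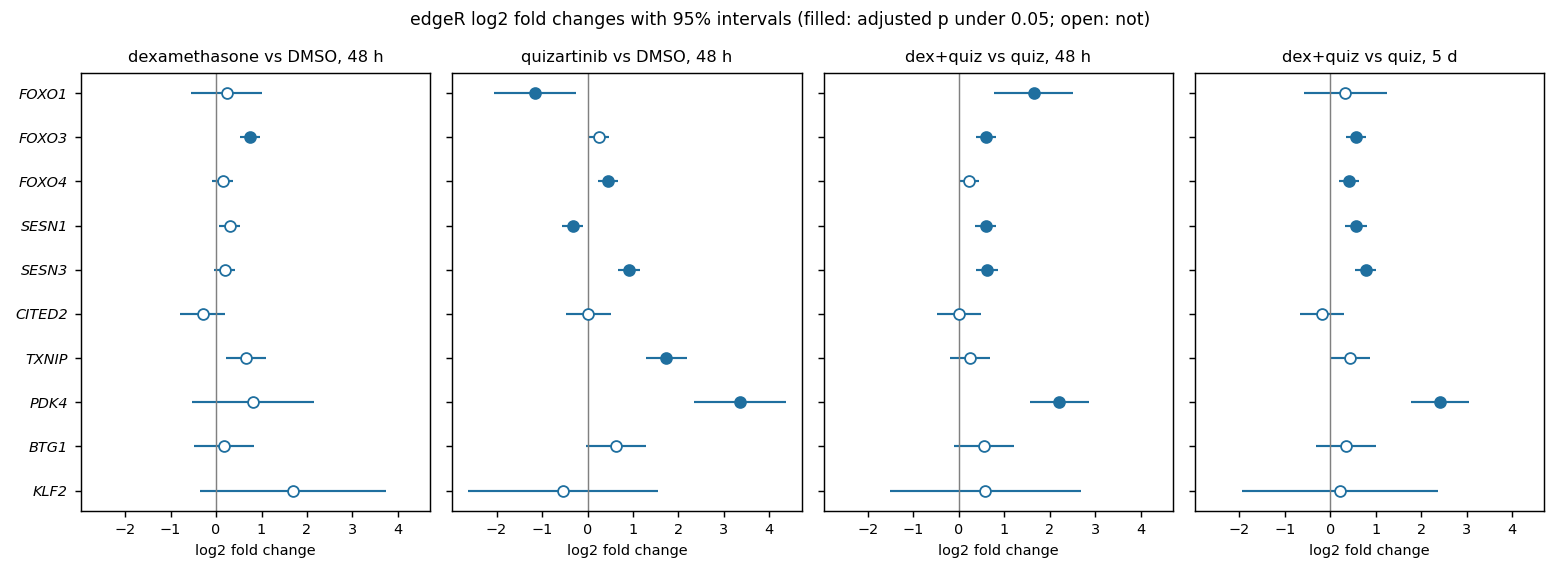
Log2 fold change (horizontal axis) of each member in 4 comparisons, as edgeR estimates with 95% intervals, filled where the adjusted p was under 0.05. PDK4 has the largest estimates of the called members, 3.35 for quizartinib against DMSO and 2.21 and 2.42 for adding dexamethasone at 48 h and 5 days, while the intervals of KLF2 span 0 in all 4.

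Of the FOXO factors, FOXO3 was the one called with dexamethasone alone, and it was also called when dexamethasone was added to quizartinib. The DMSO libraries held 35.2, 44.1 and 50.1 CPM of it, the dexamethasone libraries 70.0, 69.0 and 77.8 CPM. In quizartinib at 48 h the levels were 50.9, 50 and 52.9 CPM, and in the combination 72.7, 71.8 and 88.6 CPM. Every library with dexamethasone lay above every library without it, and this held at 5 days too, where quizartinib gave 51.6, 50.9 and 55.2 CPM and the combination 72.0, 85.0 and 77.4 CPM. FOXO3 rose by 0.75 ± 0.11 (log2 fold change ± SE, n = 3 libraries a group) with dexamethasone alone, with an edgeR adjusted p of 2e-04. It rose by 0.60 ± 0.11 on top of quizartinib at 48 h (adjusted p = 0.0015) and by 0.57 ± 0.11 at 5 days (adjusted p = 0.0028). Quizartinib alone gave 0.25 ± 0.11 (edgeR adjusted p = 0.063). That difference passed the threshold in the fit with the replicate number as a block (0.26 ± 0.09, adjusted p = 0.021), in DESeq2 (adjusted p = 0.048), with a stricter filter on low counts (adjusted p = 0.039) and without the third DMSO library (0.37, adjusted p = 0.0092) or the third libraries of all groups of 48 h (0.34, adjusted p = 0.0076). FOXO3B, a near-identical copy of FOXO3, had 15 to 40 counts per library beside 770 to 1726 for FOXO3, and summing the counts of both changed no call. KRT18, 1 of the 3 fibroblast and epithelial markers tested, was also higher with dexamethasone (0.77 ± 0.17 alone, 0.77 ± 0.17 on top of quizartinib), and so was COL1A1 on top of quizartinib (3.82 ± 0.89). The summed level of these 3 genes was 10 to 12.1 per library in DMSO, 13.9 to 22 in dexamethasone, 11.2 to 12.9 in quizartinib and 18 to 19.9 in the combination at 48 h, in CPM without TMM factors, and the other 5 markers of the list were not in the count table. Their part in the FOXO3 result was not tested.

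FOXO4, the smaller relative on the X chromosome, moved with quizartinib. The DMSO libraries were at 8.50, 9.04 and 8.91 CPM and the quizartinib libraries at 11.4, 11.1 and 13.6 CPM, without overlap. FOXO4 rose by 0.45 ± 0.11 in log2 (n = 3, edgeR adjusted p = 0.0027) with quizartinib and by 0.66 ± 0.11 with the combination (adjusted p = 6.5e-05). With dexamethasone alone it was at 10.8, 9.24 and 9.15 CPM, a difference of 0.14 ± 0.11 (adjusted p = 0.50). FOXO1, the founding member of the family, was close to the limit of detection, with 3 to 21 counts in a library. Its counts were 8, 9 and 13 in DMSO, 10, 12 and 11 in dexamethasone, 6, 3 and 3 in quizartinib at 48 h and 21, 9 and 11 in the combination. The quizartinib libraries were below all others of 48 h. FOXO1 fell by 1.16 with quizartinib (SE 0.46, edgeR adjusted p = 0.038) and was higher by 1.64 ± 0.44 in the combination than in quizartinib (adjusted p = 0.024), and both calls were lost in DESeq2 (adjusted p = 0.11 and 0.065). The first was also lost without DMSO library 2 or 3 or quizartinib library 2 or 3 (adjusted p from 0.055 to 0.13), and the second without quizartinib library 2 or 3 or combination library 1 (adjusted p from 0.093 to 0.13). Without the third libraries of the groups of 48 h neither passed (adjusted p = 0.31 and 0.12).

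The sestrins hold back the growth kinase mTORC1 when amino acids or growth signals are short, by acting on the GATOR2 complex. SESN3, the sestrin best known as a FOXO target, was higher in every library that contained quizartinib than in every library that did not. Its level was 56.8, 53.9 and 52.0 CPM in the DMSO libraries, and those with dexamethasone, at 66.04, 67.6 and 51.4 CPM, overlapped them. It was at 102, 109 and 94.6 CPM in quizartinib at 48 h and at 173, 166 and 131 CPM in the combination, above both. SESN3 rose by 0.91 ± 0.12 with quizartinib (n = 3, edgeR adjusted p = 6.6e-06) and by a further 0.62 ± 0.12 with dexamethasone added (adjusted p = 0.0023). Dexamethasone alone gave 0.19 ± 0.12 (adjusted p = 0.40). SESN1, known as a target of both p53 and FOXO, had the opposite response to quizartinib. It was at 11.4, 10.5 and 14.4 CPM in DMSO, 13.6, 14.1 and 17.0 CPM in dexamethasone, 10.2, 9.47 and 9.23 CPM in quizartinib and 14.4, 14.1 and 15.1 CPM in the combination. Quizartinib libraries were below all others of 48 h. SESN1 fell by 0.33 with quizartinib (SE 0.12, adjusted p = 0.026), a call that was lost without DMSO library 3 (adjusted p = 0.19), without quizartinib library 2 or 3 (adjusted p = 0.066 and 0.068), without the third libraries of all groups of 48 h (adjusted p = 0.21) and in a fit of the compared groups alone (adjusted p = 0.14). It rose by 0.59 ± 0.12 when dexamethasone was added to quizartinib (adjusted p = 0.003), and no library left out in turn ended that call. Dexamethasone alone gave 0.30 ± 0.12 (adjusted p = 0.11), and 0.45 without the third DMSO library (adjusted p = 0.016) or 0.36 without the third libraries of all groups of 48 h (adjusted p = 0.032). The combination against DMSO gave 0.27 ± 0.12 (adjusted p = 0.058), 0.41 without the third DMSO library (adjusted p = 0.0052) and 0.38 ± 0.10 without those of all groups of 48 h (adjusted p = 0.0048). That difference also passed with RLE in place of TMM scaling (adjusted p = 0.048), with the stricter filter on low counts (adjusted p = 0.035) and with the replicate block (adjusted p = 0.046).

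TXNIP binds thioredoxin and lowers glucose uptake by removing glucose transporters from the surface. DMSO libraries held 152, 177 and 257 CPM of TXNIP, and quizartinib libraries of 48 h held 607, 628 and 717 CPM. All quizartinib libraries were well above all DMSO libraries, and the combination, at 795, 752 and 778 CPM, lay above quizartinib alone in each library. TXNIP rose by 1.74 ± 0.23 with quizartinib (n = 3, edgeR adjusted p = 5e-06), while the combination against quizartinib gave 0.25 ± 0.22 (adjusted p = 0.60). In dexamethasone TXNIP was at 212, 248 and 469 CPM, with the third library far above the first pair. That difference from DMSO was 0.67 ± 0.22 (adjusted p = 0.064). It passed the threshold with the replicate block (0.64 ± 0.18, adjusted p = 0.024), without the third libraries of the groups of 48 h (0.51 ± 0.12, adjusted p = 0.0076), and without DMSO library 3 or dexamethasone library 1 or 2 (0.80 to 0.91, adjusted p from 0.013 to 0.046).

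PDK4 phosphorylates and switches off pyruvate dehydrogenase, which spares pyruvate from oxidation in fasting tissues. In MV4-11 it was nearly silent in DMSO, with 2, 1 and 4 counts, and in dexamethasone, with 4, 2 and 6 counts. Quizartinib at 48 h gave 24, 16 and 29 counts and the combination 111, 106 and 117 counts. In CPM these were 0.0913, 0.0454 and 0.175 in DMSO, 1.23, 0.819 and 1.32 in quizartinib and 4.71, 4.67 and 6.35 in the combination, a stepwise order without overlap. PDK4 rose by 3.35 ± 0.52 with quizartinib (95% interval 2.34 to 4.36, edgeR adjusted p = 2.6e-05), or 10.2-fold, and by a further 2.21 ± 0.33 when dexamethasone was added (adjusted p = 0.00021), or 4.62-fold. Dexamethasone alone gave 0.82 ± 0.68 (adjusted p = 0.53), with a 95% interval of -0.52 to 2.16, beside 1.56 to 2.86 on top of quizartinib. The difference between these effects of dexamethasone, the interaction, was 1.39 ± 0.84 (adjusted p = 0.52). None of the 10 members was called in the interaction, where 2.23% of all genes were, 1.49% higher and 0.749% lower; FOXO1 (1.41 ± 0.60) and SESN3 (0.44 ± 0.17) were the 2 with an unadjusted p under 0.05. DESeq2 called none of the members there either.

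BTG1, CITED2 and KLF2 had calls that depended on the third libraries, as had, above, FOXO1, FOXO3, SESN1 and TXNIP. BTG1, an antiproliferative protein that ties mRNAs to the CCR4-NOT deadenylase, had levels of 32.7, 35.1 and 79.9 CPM with DMSO, and quizartinib gave 62.9, 64.2 and 99.3 CPM. The combination gave 97.8, 96.1 and 138 CPM, above all DMSO libraries. BTG1 rose by 1.17 ± 0.34 with the combination against DMSO (n = 3, edgeR adjusted p = 0.0063), and by 1.52 ± 0.14 without the third libraries. BTG1 in the combination against quizartinib, 0.55 ± 0.33 at 48 h (adjusted p = 0.38) and 0.34 ± 0.34 at 5 days (adjusted p = 0.65), was called without them (0.62 ± 0.14, adjusted p = 0.0071, and 0.35 ± 0.11, adjusted p = 0.045). With quizartinib alone the difference was 0.62 ± 0.34 (adjusted p = 0.12); it was 0.68 ± 0.20 with the replicate block (adjusted p = 0.0074), 0.90 ± 0.14 without the third libraries (adjusted p = 4.8e-05) and 1.16 without the third DMSO library alone (adjusted p = 0.0047). The rise of the combination over dexamethasone alone, 0.99 ± 0.34 (adjusted p = 0.016), was lost without dexamethasone library 1 or 2 or combination library 3 (adjusted p from 0.07 to 0.078). CITED2, which competes for the coactivators CBP and p300 and is known in mice to keep blood stem cells quiescent, had levels of 109, 121 and 221 CPM with DMSO, and quizartinib gave 132, 125 and 200 CPM. These groups overlapped, and quizartinib against DMSO gave 0.02 ± 0.25 (adjusted p = 0.95). The combination gave 0.03 ± 0.25 against DMSO (adjusted p = 0.93) and 0.33 ± 0.25 against dexamethasone (adjusted p = 0.26). Without the third libraries CITED2 was higher in the combination than in both (0.33 ± 0.10, adjusted p = 0.009, and 0.54 ± 0.10, adjusted p = 0.00021), the latter also without dexamethasone library 3 alone (0.65, adjusted p = 0.027).

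KLF2 is a zinc finger factor that FOXO1 is known to activate in T cells, where it goes with quiescence, and it also responds at once to shear and other stimuli. DMSO libraries held 2.88, 2.63 and 45.5 CPM of it, and dexamethasone libraries 9.71, 15.5 and 139.5 CPM. The levels were 3.39, 2.76 and 28.6 CPM in quizartinib at 48 h and 11.5, 10.4 and 31.2 CPM in the combination. The third library was the highest of its group in all 4, by 16.5, 11.1, 9.31 and 2.85 times the mean of the first pair. Within the first pair of libraries of the groups of 48 h, KLF2 was higher wherever dexamethasone was present. With all libraries, no difference in KLF2 was called. Dexamethasone against DMSO gave 1.69 ± 1.05 (edgeR adjusted p = 0.36), and dexamethasone on top of quizartinib gave 0.58 ± 1.07 (adjusted p = 0.83). For dexamethasone against DMSO, leaving out DMSO library 3 gave 4.32 (adjusted p = 0.024) and leaving out dexamethasone library 3 gave -0.45 (adjusted p = 0.85). Without the third libraries of all groups of 48 h, KLF2 was higher by 2.20 ± 0.30 with dexamethasone alone (adjusted p = 0.00012) and by 1.84 ± 0.30 with dexamethasone on top of quizartinib (adjusted p = 7e-04), while quizartinib against DMSO gave 0.15 ± 0.35 (adjusted p = 0.73). The combination against DMSO gave 1.99 ± 0.30 without them (adjusted p = 2.9e-05), beside 0.04 ± 1.05 with all libraries, and 5 day quizartinib against DMSO gave 1.95 ± 0.29 (adjusted p = 1.9e-05), beside -0.66 ± 1.08. DUSP1, an immediate early gene that glucocorticoids also induce, was at 1.87, 1.73 and 197 CPM in DMSO. The part of the immediate early genes in the KLF2 levels was not tested.

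**Figure D3:**
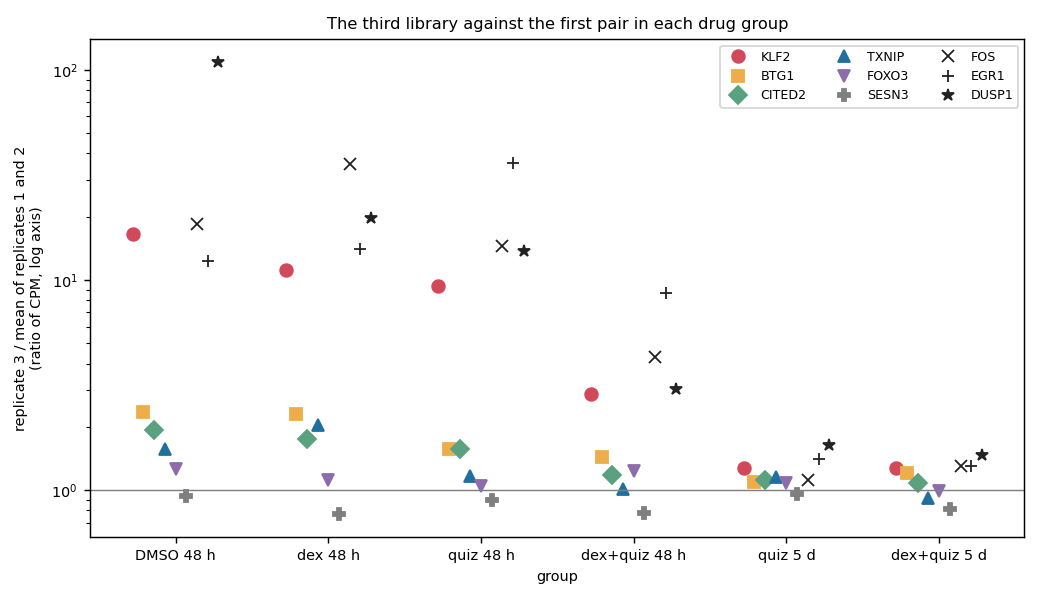
Ratio of the third library to the mean of the first pair (vertical axis, logarithmic, ratio of CPM) in each drug group, for 6 members and for the immediate early genes FOS, EGR1 and DUSP1 in black. KLF2 lies between 2.85 and 16.5 in the groups of 48 h and at 1.27 in both groups of 5 days, while SESN3 stays under 1 in all 6.

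**Figure D4:**
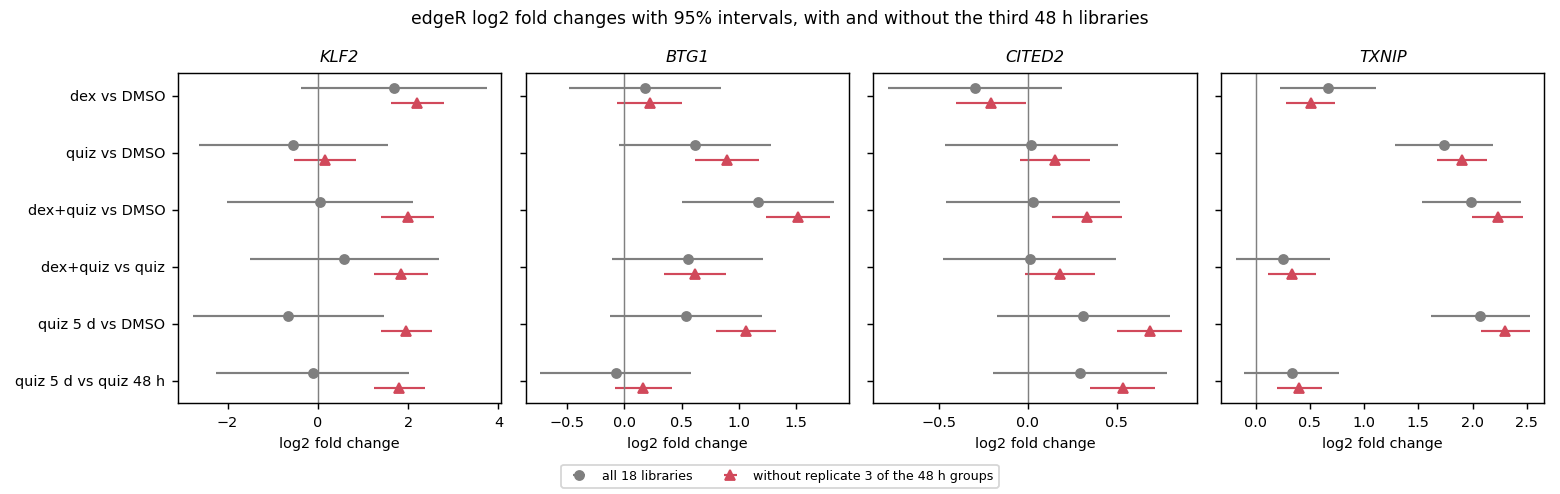
Log2 fold change (horizontal axis) with its 95% interval for KLF2, BTG1, CITED2 and TXNIP in 6 comparisons, from all 18 libraries (grey circles) and without the third libraries of the groups of 48 h (red triangles). The intervals of KLF2 shrink, and its estimate for 5 day quizartinib against DMSO moves from -0.66 to 1.95.

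Between 48 h and 5 days of quizartinib no member was called, where 3.16% of all genes were called (0.889% higher and 2.28% lower), and 1 member (SESN3) had an unadjusted p under 0.05; DESeq2 also called none. TXNIP was at 743, 819 and 898 CPM after 5 days, above all quizartinib libraries of 48 h, a difference of 0.33 ± 0.22 (edgeR adjusted p = 0.48). Without the third libraries of 48 h, TXNIP (0.40 ± 0.10, adjusted p = 0.032), CITED2 (0.53 ± 0.09, adjusted p = 0.003) and KLF2 (1.80 ± 0.29, adjusted p = 0.0017) were higher at 5 days. With all libraries CITED2 gave 0.29 ± 0.25 (adjusted p = 0.60) and KLF2 gave -0.12 ± 1.09 (adjusted p = 0.98). Against DMSO of 48 h, 5 day quizartinib called 6 members where 62.8% of all genes were called (30.7% higher and 32.1% lower): TXNIP (2.07 ± 0.23), PDK4 (3.72 ± 0.50), SESN3 (1.17 ± 0.12), FOXO4 (0.36 ± 0.11) and FOXO3 (0.29 ± 0.11) higher and SESN1 (-0.46 ± 0.12) lower. The call of FOXO3 (adjusted p = 0.034) was lost when any of 5 of the 6 libraries was left out, all but DMSO library 3 (adjusted p from 0.053 to 0.19), and that of FOXO4 without quizartinib library 2 (adjusted p = 0.079). With all libraries BTG1 (0.54 ± 0.34, adjusted p = 0.17) and CITED2 (0.31 ± 0.25, adjusted p = 0.29) were not called. BTG1 (1.08, adjusted p = 0.0069) and CITED2 (0.70, adjusted p = 0.012) passed without the third DMSO library, and without the third libraries of all groups of 48 h (1.06 and 0.68, adjusted p = 3.1e-06 and 8e-06).

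At 5 days the combination held the highest mean of 5 members: FOXO3, FOXO4, SESN3, TXNIP and PDK4. In the order of the 6 group means, SESN3, TXNIP and PDK4 each had 3 steps at which neighbouring groups did not overlap. SESN1 had 2, FOXO3 and FOXO4 had 1, and FOXO1, CITED2, BTG1 and KLF2 had none. How many such steps genes have over the whole table was not computed, so these counts are not a trait of the members. PDK4 was at 1.47, 1.35 and 1.53 CPM in quizartinib and 3.84, 9.49 and 9.99 CPM in the combination, so the first combination library was well below the other two but above all of quizartinib. PDK4 rose by 2.42 ± 0.32 (n = 3, edgeR adjusted p = 8e-05). SESN3, at 116, 132 and 118 CPM in quizartinib, reached 238, 207 and 181 CPM and rose by 0.78 ± 0.12 (adjusted p = 0.00041). SESN1, at 8.52, 9.42 and 8.46 CPM, reached 13.3, 12.8 and 13.0 CPM and rose by 0.56 ± 0.12 (adjusted p = 0.0061). For these 3 genes no library of the combination overlapped quizartinib. FOXO4 rose by 0.41 ± 0.11 (adjusted p = 0.031), a call that was lost without quizartinib library 1 or 3 or combination library 1 or 3 (adjusted p from 0.094 to 0.13). TXNIP was at 1241, 1039 and 1045 CPM in the combination, above all of quizartinib, with 0.43 ± 0.22 (adjusted p = 0.29); a fit of these groups alone gave 0.44 ± 0.10 (adjusted p = 0.011), and a fit without the third libraries of 48 h gave 0.44 ± 0.09 (adjusted p = 0.0036). Against the combination of 48 h TXNIP gave 0.52 ± 0.22 (adjusted p = 0.16), and 0.51 ± 0.10 without those libraries (adjusted p = 0.0041). Against the combination of 48 h, SESN3 was the 1 member called, at 0.41 ± 0.12 (adjusted p = 0.041), where 9.26% of all genes were called, 3.78% higher and 5.48% lower. That call was lost when any of 5 of the 6 libraries was left out, all but library 3 of the 5 day combination (adjusted p from 0.052 to 0.19). PDK4 in that comparison, 0.57 ± 0.29 (adjusted p = 0.25), gave 0.90 without the first 5 day library (adjusted p = 0.046).

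The shares of all genes called, given above for each comparison, are the background for the following lists. Of 33 further FOXO targets tested, quizartinib against DMSO at 48 h called 15 higher and 6 lower, where 59.4% of all genes were called, 29% higher and 30.4% lower, with a median log2 fold change of 0.33 beside 0.02 over all genes. The cell cycle inhibitor CDKN1C (3.45 ± 0.22), the pro-apoptotic BMF (2.22 ± 0.08) and the PI3K inhibitor PIK3IP1 (2.14 ± 0.17) rose, and the cytokine receptor IL7R (-4.07 ± 0.65) fell. Dexamethasone against DMSO called 7 higher and 2 lower (median 0.18 beside -0.02), where 12.1% of all genes were called. Dexamethasone added to quizartinib called 8 higher and 2 lower at 48 h (median 0.15 beside 0.01; 10.3% of all genes called) and 9 higher and 1 lower at 5 days (median 0.09 beside -0.01; 8.64% called). PIK3IP1 was at 2.28, 2.23 and 1.97 CPM in DMSO, 21.9, 20.3 and 27.7 CPM in dexamethasone, 11.4, 10.1 and 7.23 CPM in quizartinib and 63.9, 61.3 and 58.6 CPM in the combination. Each drug alone and the combination were separate from DMSO in this gene, and dexamethasone raised it by 3.43 ± 0.17 alone and by 2.68 ± 0.15 on top of quizartinib (edgeR adjusted p = 6.7e-10 and 3.6e-09). TSC22D3, the glucocorticoid-induced leucine zipper, rose by 3.05 ± 0.55 and 2.89 ± 0.54, and the insulin receptor substrate IRS2 by 2.28 ± 0.35 and 2.06 ± 0.35, in the same comparisons.

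Of 24 genes of the PI3K, AKT and SGK pathway upstream of FOXO, quizartinib called 7 higher and 7 lower at 48 h (median 0.02, as over all genes). That is near the background of 29% higher and 30.4% lower. Those called included AKT1 (-0.55 ± 0.09), the PI3K catalytic subunit PIK3CG (-0.68 ± 0.09) and the mTOR partner MLST8 (-0.69 ± 0.09), which fell. Dexamethasone called 3 higher and 2 lower, where 12.1% of all genes were called, with the catalytic subunit PIK3CB (1.10 ± 0.13) among those that rose. Of 29 partners and regulators of FOXO proteins, quizartinib called 7 higher and 13 lower (median -0.12), beside the same 29% and 30.4% of all genes, and the forkhead factor FOXM1, which FOXO proteins oppose and which drives mitosis, fell by 7.57 (SE 0.21). All 13 proliferation genes were lower too, with a median of -5.47. Dexamethasone added to quizartinib at 48 h called 8 of them higher and 0 lower (median 0.89), where 10.3% of all genes were called. At 5 days it called 0 (median -0.04), and the interaction at 48 h called 5 higher and 0 lower. In the combination of 48 h all 13 were still lower than in DMSO (median -4.56).

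Genes that share a family or a pathway with the targets were called in both directions under quizartinib at 48 h, where 29% of all genes were called higher and 30.4% lower. Of 19 paralogs, 7 were higher and 3 lower (median 0.39). The arrestin-domain relatives of TXNIP, ARRDC3 (2.65 ± 0.57) and ARRDC4 (1.18 ± 0.12), and KLF10 (2.09 ± 0.47) rose, and BTG3 (-3.07 ± 0.30) fell. With dexamethasone ARRDC4 fell by 0.93 (SE 0.12), and KLF13 (0.71 ± 0.07) and KLF3 (0.65 ± 0.15) rose. Of 19 partners of TXNIP and PDK4, 3 were higher and 12 lower (median -0.55) against that background. The glucose transporter SLC2A3 (-2.50 ± 0.71), the pyruvate dehydrogenase phosphatase PDP2 (-1.48 ± 0.12) and the pyruvate dehydrogenase subunits DLAT (-1.26 ± 0.07) and PDHA1 (-1.05 ± 0.07) fell. Of 23 partners of BTG1, the sestrins and KLF2, 4 were higher and 9 lower (median -0.16) against the same background, with PRMT1, the arginine methyltransferase that BTG1 binds, at -1.71 ± 0.10 and SEH1L of the GATOR2 complex at -1.17 ± 0.09. MEF2A, of the factors that drive KLF2 in endothelium, rose with dexamethasone alone (0.72 ± 0.08) and on top of quizartinib (0.55 ± 0.08), while MEF2D fell by 0.60 and fell by 0.44.

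In the recovery experiment the levels are FPKM and can be set between genes. In untreated cells CITED2 (73.3 and 93.9 FPKM) and TXNIP (74.0 and 46.2 FPKM) had the highest levels of the 10, and FOXO4 (4.27 and 4.97 FPKM) and FOXO3 (3.43 and 3.45 FPKM) had similar ones. FOXO1 was at 0.0242 and 0.00700 FPKM and PDK4 was listed at 0 in both libraries. These 2 members stayed under the filter of 1 FPKM in at least 2 libraries, and the other 8 were tested among 18098 genes with limma on log2(FPKM + 1). TXNIP was at 182 and 162 FPKM in survivors of 100 nM quizartinib, above both untreated libraries, and rose by 1.54 ± 0.30 on that scale (limma adjusted p = 0.03, n = 2), beside a median shift of 0.18 over all genes. It was the 1 member called, where 14.5% of all genes were called, 8.14% higher and 6.39% lower. The call was lost when any 1 of the 4 libraries was left out (1.21 to 1.87, adjusted p from 0.10 to 0.16) and with no filter on low FPKM (adjusted p = 0.062), and over all genes the number of calls fell from 2630 to between 11 and 36 when 1 library was left out.

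FOXO4 (10.3 and 8.54 FPKM), FOXO3 (5.80 and 5.12 FPKM) and SESN3 (13.0 and 9.57 FPKM) in survivors were each above both untreated libraries, where SESN3 was at 5.58 and 5.66 FPKM. Their differences were 0.89 ± 0.33, 0.54 ± 0.22 and 0.88 ± 0.36 (limma adjusted p = 0.11, 0.14 and 0.14), and FOXO4 passed in a fit of these groups alone (adjusted p = 0.047). SESN1 was at 11.2 and 6.33 FPKM in survivors and 11.7 and 10.3 FPKM in untreated cells, and the groups overlapped. PDK4 was at 1.28 and 0.0404 FPKM in survivors. KLF2 was at 14.9 and 19.7 FPKM in untreated cells and 13.8 and 6.22 FPKM in survivors. The 10 nM and 100 nM doses come from different experiments and units and were not compared.

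After 13 days without drug, TXNIP was at 157 and 248 FPKM, still above both untreated libraries, and after 30 days at 104 and 109 FPKM, between survivors and untreated cells. The differences from untreated were 1.74 ± 0.30 at 13 days (limma adjusted p = 0.076) and 0.85 ± 0.30 at 30 days (adjusted p = 1), and no member was called. Among all genes 0.381% were called at 13 days (0.133% higher and 0.249% lower) and 0.127% at 30 days (0.0774% higher and 0.0497% lower); 1 of the 8 members had an unadjusted p under 0.05 in each, TXNIP both times. Leaving out 1 library moved these counts of all genes from 69 to between 24 and 2231 at 13 days and from 23 to between 4 and 25 at 30 days, so the background shares are not stable. TXNIP at 13 days passed without the first 13 day library (2.06, adjusted p = 0.018). No member was called between 13 days and survivors, where 0.845% of all genes were (0.177% higher and 0.669% lower), or between 30 and 13 days, where 0.403% were (0.326% higher and 0.0774% lower); 0 and 1 members had an unadjusted p under 0.05. With 1 library left out, 11 to 2695 genes instead of 153 and 26 to 1733 instead of 73 were called. Of the genes called between 13 days and survivors 20.9% were higher, and 39.5% after quantile normalization. FOXO4 differed from survivors by -1.20 without the second 13 day library (adjusted p = 0.039), beside -0.76 ± 0.33 (adjusted p = 0.23) with both. The second 13 day library, with MKI67 near 0, had the higher level of FOXO4 (7.35 beside 3.51 FPKM), TXNIP, BTG1 (57.0 beside 29.5 FPKM), CITED2 (145 beside 78.8 FPKM) and KLF2 (34.4 beside 11.1 FPKM). FOXO3 (4.22 beside 3.45 FPKM) and SESN3 (6.635 beside 5.938 FPKM) differed less. SESN1 (5.475 beside 6.773 FPKM), PDK4 (0.317 beside 0.645 FPKM) and FOXO1 (0.024 beside 0.066 FPKM) were lower there. The immediate early gene EGR1 was higher in the second library, at 179 beside 34.2 FPKM, and so was the T and NK cell marker NKG7, at 115 beside 64.1 FPKM. The part of either in these levels was not tested. At 30 days BTG1 (21.3 and 72.6 FPKM) and KLF2 (15.4 and 51.6 FPKM) again differed between the libraries by more than between groups.

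**Figure D5:**
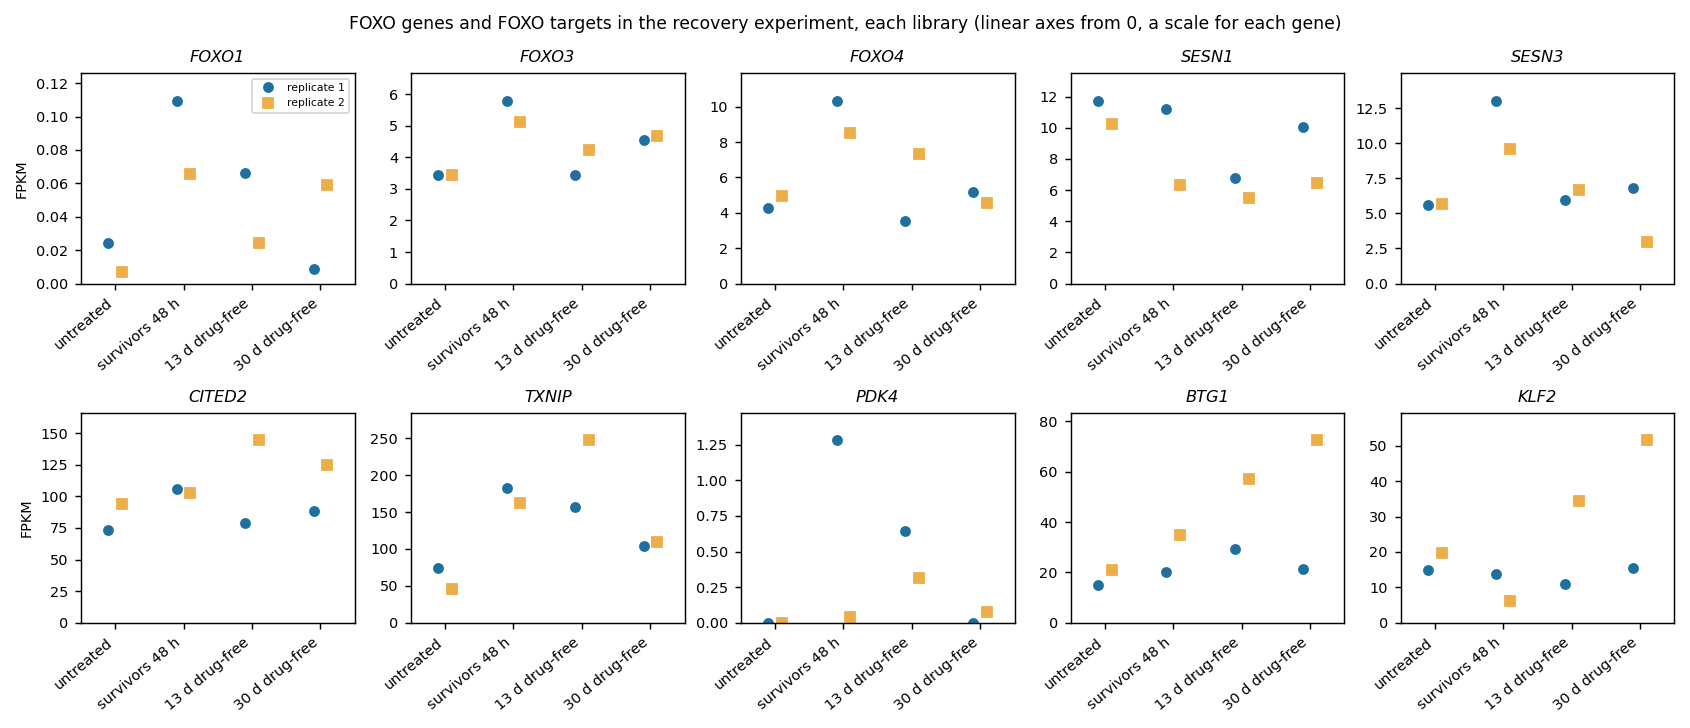
FPKM of each member (vertical axis, linear from 0, a scale for each gene) in the 8 libraries of the recovery experiment, by group, with replicate 1 as blue circles and replicate 2 as orange squares. TXNIP is above both untreated libraries in all 6 later libraries, and the 2 libraries of 13 days lie far apart for FOXO4, BTG1, CITED2 and KLF2.

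The genes whose course over the 18 drug libraries was nearest to that of each member were found by the root mean square difference of log2 CPM after centring each gene, among 12724 genes at a mean of 1 CPM or more. FOXO3 was followed most closely by SSH2, PPM1B and BACE1, at 0.10 to 0.14, where FOXO3 itself varied by 0.36. FOXO4 was followed by SNAP23, SIRT1 and MED13L, all at 0.11 beside 0.28. SESN3 had RPAP2, PDE7A and ASAH1 at 0.19 beside 0.70, and TXNIP had CPD, HIPK2 and MS4A14 at 0.22 to 0.26 beside 0.93. PDK4 was followed less closely, by TNK2-AS1, MERTK and GSTM2 at 0.56 to 0.60 beside 1.98. KLF2 was nearest to RHOB, CXCL8 and TREM1, at 0.51 to 0.65 beside 1.43. SESN1 (WWC3, ZFR and MARCHF8), CITED2 (KDM3A, ATXN7L3B and C16orf74), BTG1 (IFRD1, TNS1 and TET1) and FOXO1 (LRRC26, ADAMTSL5 and CEP70) had their nearest genes at 0.14 to 0.35. No member was among the 3 nearest genes of another; FOXO1, under a mean of 1 CPM, could not have been.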

How the data were processed

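For the drug experiment the authors deposited whole-number counts per gene, per the file headers, and the submitters' processing notes name CASAVA, STAR 2.7.3, RSEM, edgeR and DESeq2 with GRCh38. For the recovery experiment the authors deposited FPKM per gene, per the file headers, and the notes name CASAVA, TopHat2 2.0.9, Cuffdiff and hg38; the roles of the tools are not given in the sources used here. Depth behind an FPKM is unknown. The library kit marks strand, per the labels' protocols, and the strand setting of the counting is not given.

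Counts were scaled by TMM and fitted with edgeR 4.0.16 (quasi-likelihood, all 18 libraries; filterByExpr kept all 16430 genes) under R 4.3.3. FPKM was fitted with limma 3.58.1 (trend) as log2(FPKM + 1), for the 18098 genes that reached 1 FPKM in 2 or more libraries. P-values were adjusted by Benjamini-Hochberg over all genes and called under 0.05. The share of all genes with an unadjusted p under 0.05 was not computed, so counts of members at that threshold have no background. DESeq2 1.42.0 served as an alternative. An error after ± is a standard error, and intervals are 95% (1.96 standard errors). Both fits were run on simulated data of independent libraries, with the same setting of spread for all genes. That run held no shift of the third libraries, so it does not bear on them. Replicate numbers come from the titles. Deviations of same-numbered libraries from their group mean were positively correlated in dexamethasone against DMSO (0.298, 0.253 and 0.635) and quizartinib against DMSO at 48 h (0.100, 0.171 and 0.268). They were so too in the combination against quizartinib at 48 h (0.124, 0.149 and 0.271). Among these comparisons, every library matched its own number best only in the last. Dexamethasone library 2 matched DMSO library 1 best, and quizartinib library 1 matched DMSO library 2 best. In 5 day quizartinib against DMSO and against quizartinib of 48 h every library matched its own number best (0.0719 to 0.1449). Library 2 of the 5 day combination had negative values, -0.0116 against quizartinib of 5 days and -0.0817 against the combination of 48 h. The third libraries stood apart, which by itself makes the first pair deviate together, so these values do not establish a pairing. Blocked values that change a call stand beside those results or in the last section. The members, gene lists and tests were chosen with earlier results of these data known. From each list, up to 4 called genes with the largest change in a comparison were open to naming; immediate early genes, MKI67, NKG7 and COL1A1 were chosen after their values were seen. Tables and plots used Python 3.11.15, pandas 2.3.3 and matplotlib 3.10.9.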

Additional observations from a re-analysis of the deposited data

How the results depend on the processing

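The 10 members gave 1844 values under alternative settings. Of these, 1687 kept their direction and their side of the threshold, and 68 changed sign without passing it either way. Another 46 passed it newly, 41 no longer passed it and 2 passed it with the opposite sign. Those 2 were KLF2 at 5 days of quizartinib without the third libraries of 48 h. They were 1.95 against DMSO (instead of -0.66) and 1.80 against quizartinib of 48 h (instead of -0.12). The total holds 100 values from a fit without the filter on low counts, which could not differ, as the filter had kept every gene. It also holds 100 from summing FOXO3 and FOXO3B, which left the counts of every member but FOXO3 unchanged. These values say little about stability. Members called in dexamethasone against DMSO numbered 2 with the replicate block and 4 without the third libraries, beside 1. Leaving out 1 library gave 1 to 4, where 1422 to 2085 of all 16430 genes were called instead of 1993. Over all genes the block called 1125 higher and 1353 lower. Without the third libraries 1169 of 16223 genes were higher and 1097 lower. In that setting the combination of 48 h against DMSO newly called SESN1, CITED2 and KLF2 and lost no call. There 5165 of all genes were higher and 5360 lower. For 5 day quizartinib against DMSO it newly called CITED2, BTG1 and KLF2 and lost no call, where 5379 of all genes were higher and 5630 lower. Without the third libraries 3 members instead of 0 were called between 5 days and 48 h of quizartinib, and 2 instead of 1 between the combinations, where leaving out 1 library gave 0 to 1. In survivors the number was 0 with no filter on low FPKM, 2 in a fit of the compared groups alone, and 0 to 0 with 1 library left out, beside 1. At 13 days it was 0 to 1 with 1 library left out, against untreated cells and against survivors. Leaving out 1 library gave 4 to 6 members for quizartinib against DMSO, 6 to 7 for the combination against DMSO and 4 to 8 for 5 day quizartinib against DMSO. It gave 4 to 6 for the combination against dexamethasone and 4 to 5 for adding dexamethasone to quizartinib at either time. Over all genes those fits called 8675 to 9533 for quizartinib, 9565 to 10141 for the combination and 9434 to 10061 for 5 day quizartinib, each against DMSO. They called 9976 to 10625 for the combination against dexamethasone. For adding dexamethasone to quizartinib they called 1163 to 1359 at 48 h and 818 to 1217 at 5 days. Lone libraries of a recovery group were taken to vary like the others. The replicate block also brought SESN1 in the combination against DMSO past the threshold (0.27, edgeR adjusted p = 0.046). It did so for CITED2 in the combination against dexamethasone and in 5 day quizartinib against DMSO (0.37 and adjusted p = 0.042 for both). BTG1 in 5 day quizartinib against DMSO passed as well (0.66, adjusted p = 0.0087). In these comparisons same-numbered libraries had correlations from 0.0444 to 0.1885. The block ended no call. Summing FOXO3 and FOXO3B, chosen after seeing the data, changed no call. Genes called over the whole table moved by more than 1.5 times in several comparisons. For dexamethasone against DMSO they were 579 instead of 1993 in a fit of the compared groups alone. For survivors they were 727 with no filter and 4530 in a fit of the compared groups alone, instead of 2630. For quizartinib of 5 days against 48 h they were 866 to 1068 in 4 settings and 133 to 370 with 1 library left out, instead of 520. For the combination at 5 days against quizartinib they were 2430 and 2758 in 2 settings and 818 to 1217 with 1 library left out, instead of 1419. Between the combinations they were 607 to 1245 with 1 library left out and 2577 without the third libraries, instead of 1521, and for the interaction 189 to 597 instead of 367. FOXO1 and PDK4 (1 to 4 counts a library in DMSO) are limited by depth, and 2 libraries a group limit the recovery experiment.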
